A study of Gallus gallus with 4 samples.

Results

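The genes described here code for the proteins of the cytosolic ribosome. They were taken as the gene symbols of the platform's annotation that read RPL or RPS followed by a digit, or that name the stalk proteins, with the RPS6 kinases left out. This gave 67 of 13051 gene measures, of which 43 belong by name to the large subunit and 24 to the small subunit. Of these, 60 are structural proteins of the ribosome (38 large, 22 small) and 6 are paralogues of a main form (RPL22L1, RPL26L1, RPL39L, RPL3L, RPL7L1 and RPS27L). RPS19BP1 shares only the letters of the rule and codes for a protein that binds RPS19. Ribosomal proteins without a gene value under these symbols are not analysed here. RPS4 was annotated as RPS4Y1, although RefSeq places this chicken gene on chromosome 4.

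Retina, retinal pigment epithelium (RPE) and choroid were dissected as 1 sample from the right eyes of chicks labelled as male and of a Leghorn/New Hampshire cross, kept on a 12-hr light cycle. The control group wore no lens and was sampled at post-hatch day 11. The other groups wore an occluder over the right eye, which causes form-deprivation (FD) myopia, an overgrowth of the eye. They were sampled with the occluder on at day 11 (FD 0 hr), or with it off for 6 hr at day 11 (FD 6 hr) or for 24 hr at day 12 (FD 24 hr). The labels give 7 days of form deprivation, whereas the treatment protocol gives 10. The ages given here are those of the sample records, whereas the paper has the occluders taken off on day 12. RNA of 5 chicks was pooled for each group and read on 1 Affymetrix chicken array, so that there are 4 arrays in all and no replicates. No test, p-value or replicate error can therefore be given, and every difference below is one between single arrays of pooled RNA.

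Ribosomal proteins are made in nearly equal numbers, since each ribosome holds a single copy of most of them. The small subunit reads the mRNA, while the large subunit joins the amino acids and passes the new chain through a tunnel. In vertebrates their mRNAs begin with a terminal oligopyrimidine (TOP) tract, through which mTOR signalling controls how much of each mRNA is translated, so that mRNA level and protein output can differ. In the retina, photoreceptors renew their outer segments every day and have a high demand for protein synthesis.

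Several facts of the 4 arrays stand beside all results. RPE65 of the pigment epithelium was at 12.75 to 13.32 on the log2 scale and the cone transducin GNAT2 at 12.16 to 12.56, whereas the endothelial PECAM1 (4.53 to 4.76) and the leukocyte PTPRC (4.59 to 4.74) lay under 6.28, the limit below which signals are called dim here. The W-linked HINTW, which only females carry, was at 9.36 on the control array and at 5.34 to 5.52 on the others, although all chicks are labelled male. The gap between the 3′ and 5′ probe sets of β-actin, which widens when RNA is degraded or poorly copied, was 3.72 on the FD 0 hr array and 2.39 to 2.85 on the others. That of EF1α was also widest on the FD 0 hr array, at 1.41, and 1.12 to 1.30 on the others, while that of GAPDH was 0.15 to 0.21. In the paper the β-actin signal was above threshold, and its transcription is called possibly altered in extreme myopia. Pre-processing was rerun there with the β-actin housekeeping probe sets masked, while GAPDH and EF1α were within limits. The bacterial poly-A control dap, added before labelling, was at 9.07 on the control array, and then, in order of time, at 9.78, 7.69 and 7.30. In the same order the hybridisation controls bioB and bioC were at 8.47, 8.20, 6.70 and 6.67, and at 10.13, 9.98, 7.11 and 7.14. By all 3 signals the control and FD 0 hr arrays were brighter than the later arrays. Recovery from 0 to 6 hr crosses this split, as does the 24 hr array set against control. Occlusion against control and recovery from 6 to 24 hr do not cross it. The part of this split in the differences below was not tested. In a design of 1 array a group, a group difference cannot be told apart from a sex mark or control signal that differs between the same arrays.

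Ribosomal protein probe sets were among the brightest on the arrays. For 62 of the 67 members the brightest probe set had a mean log2 signal of at least 10, whereas only 40 had a gene value of at least 10, and the highest value on any array was 14.10 to 14.26. The members had 141 probe sets in all, 79 at a mean of at least 10 and 62 below, and 69 had a name suffix that marks probes shared between transcripts. A gene's value was the median of its probe sets, and dim probe sets outnumbered the bright ones in some members. RPS12 shows this plainly, with probe sets at a mean of 12.05, 6.69, 5.79, 4.22 and 3.99. The brightest probe set is therefore given beside the median where a result turns on a member with several. The signal of a probe set depends on its probes as well as on the RNA, and no member's level is compared with that of another. Below, 4 values in a row are log2 signals on control, then at 0, 6 and 24 hr after the occluder came off, and, unless another difference is named, a value in brackets after them is FD 0 hr minus control.

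**Figure D1:**
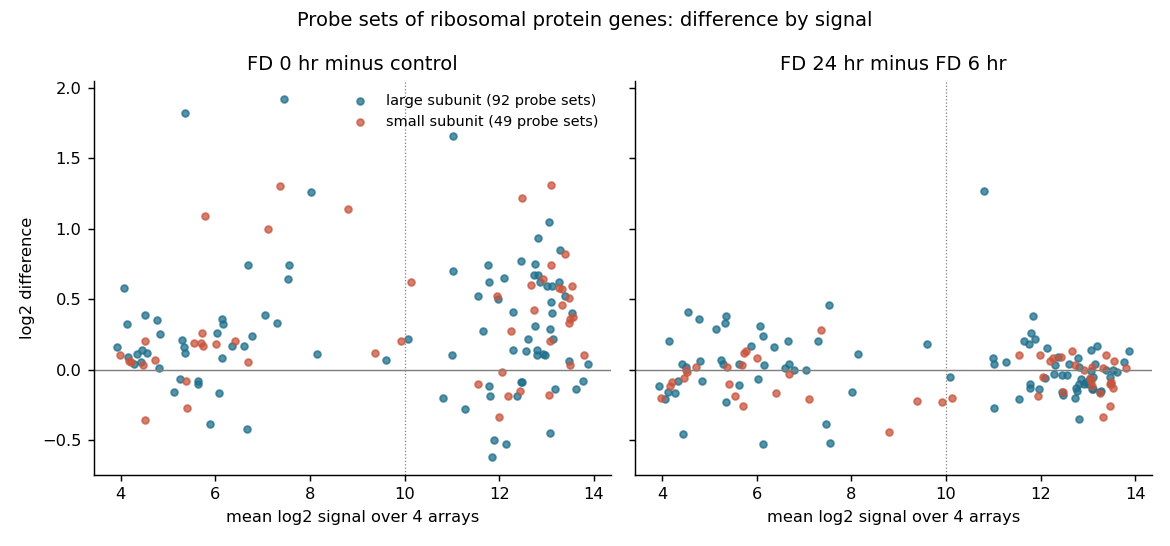
Log2 difference of each of the 141 probe sets of ribosomal protein genes (y axis) against its mean log2 signal over the 4 arrays (x axis), in the first and the last interval (control to FD 0 hr, left, and FD 6 hr to FD 24 hr, right), coloured by subunit, with a dotted line at a mean of 10. Bright probe sets spread further in the left panel, from -0.62 to 1.66, and lie mostly above 0.

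Form deprivation against control asks how the ribosomal protein mRNAs stood at the end of occlusion. On the FD 0 hr array 53 of 67 members were higher than on the control array and 14 were lower, against 49.4% and 49.5% of all gene measures. The median difference was 0.285 on the log2 scale, beside 0.00 for all gene measures and 0.04 for the brightest 10% of genes. A difference of at least 0.5 (1.41-fold) was reached by 21 members upwards, or 31.3%, beside 9.81% of all gene measures and 23.8% of the brightest 10%. Downwards it was reached by RPLP0 and RPL4, or 2.99%, beside 9.85% of all gene measures and 20.2% of the brightest 10%. Set against the brightest 10% of genes rather than all, the members differed less from the background in the share that was higher by 0.5 than in the share that was lower. At a limit of 1 (2-fold), 6 members were higher, beside 2.55% of all gene measures, and 0 were lower, beside 2.31%.

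By the brightest probe set of each gene, 50 members were higher, or 74.6%, beside 50.3% of all genes read in the same way, and 17 were lower (median 0.33). A difference of 0.5 was reached upwards by 25 members (37.3%, beside 14.3% of all genes read in the same way and 24.4% of the brightest 10%) and downwards by RPLP0 and RPL4 alone (12.6% of all genes and 17.1% of the brightest 10%). Of the members at 0.5 or more, 18 reached it by both readings. Of these 18, 12 have 1 probe set, so that their readings are the same value and could not differ. The members' probe sets of at least 10 had a median of 0.33, with 59 higher and 20 lower, and those under 10 a median of 0.17, with 52 higher and 10 lower. The direction was thus the same in bright and dim probe sets.

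The subunits lay close to each other. The median was 0.27 over 43 members of the large subunit, with 33 higher and 10 lower, and 0.33 over 24 of the small subunit, with 20 higher and 4 lower. The gap between the subunits, large minus small, was -0.06. It was 0.00 after quantile normalisation of the arrays, and -0.23 over structural members with a brightest probe set of at least 10. Over all alternative settings it was -0.23 to 0.022. Members of the large subunit ranged from -0.62 to 1.26 and those of the small subunit from -0.34 to 1.305. The spread within each subunit was therefore many times the gap between them.

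**Figure D2:**
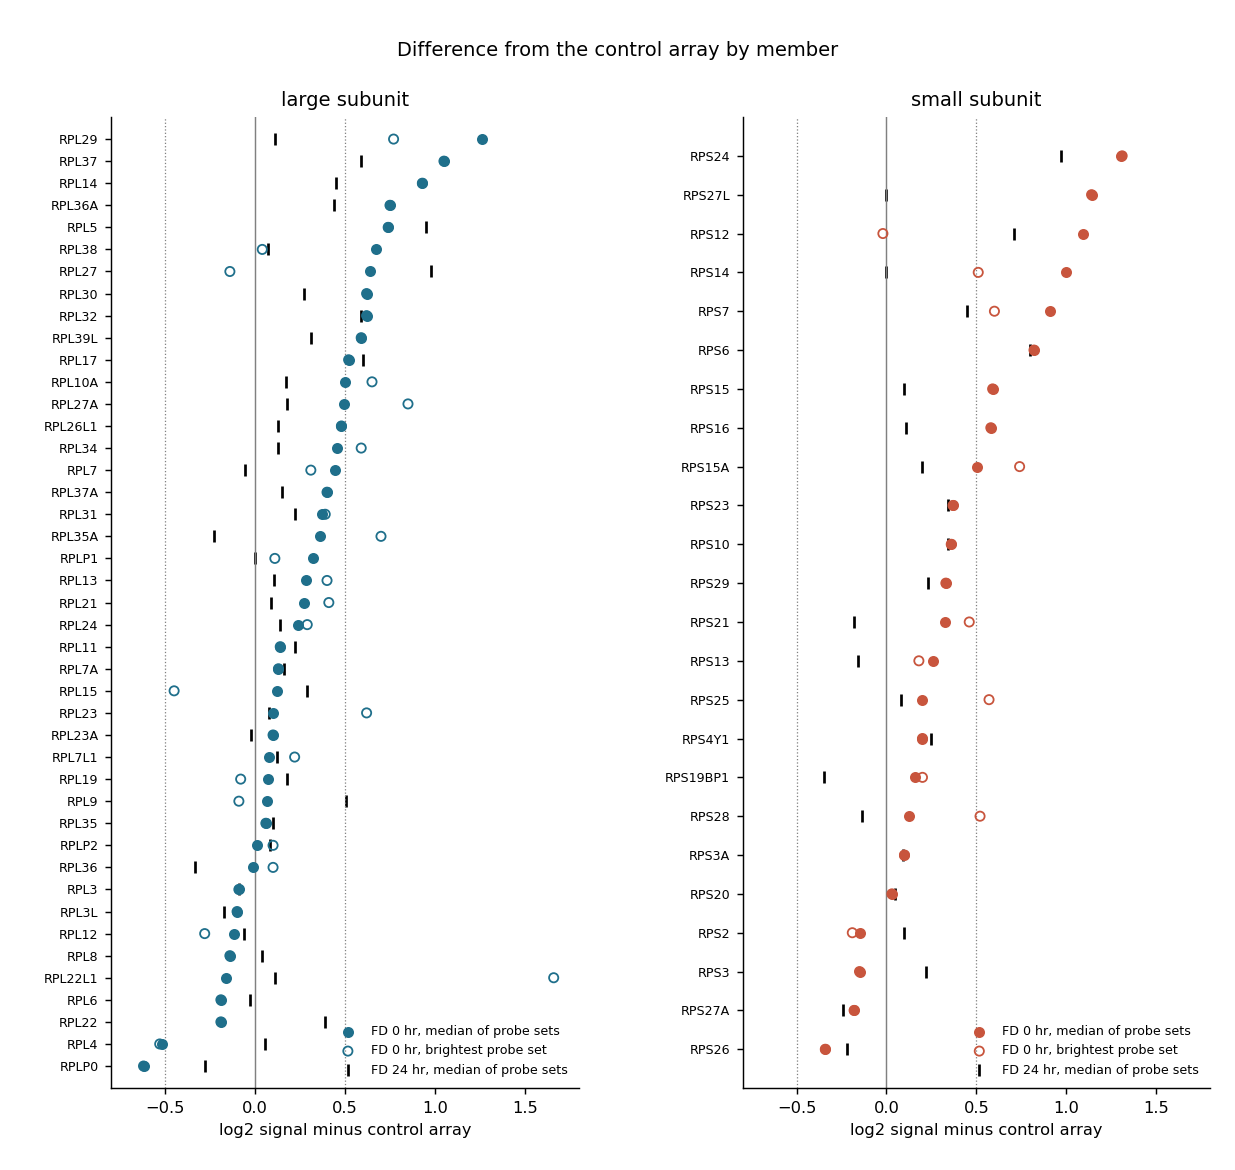
Difference from the control array on the log2 scale (x axis) for each member of the large and small subunit (y axis, ordered by FD 0 hr), with the median of probe sets at FD 0 hr as filled circles, the brightest probe set as open circles and FD 24 hr as bars. Dotted lines mark 0.5 up and down. RPS24 at 1.305 and RPL29 at 1.26 lead their subunits, and RPLP0 at -0.62 and RPL4 at -0.515 are the only members beyond the lower line.

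Among small subunit proteins, RPS24, which is needed for maturation of the small subunit RNA and is mutated in some families with Diamond-Blackfan anaemia, differed most. Its median was at 9.45, 10.76, 10.27 and 10.42, and its brightest probe set was at 12.30, 13.61, 13.20 and 13.22. The control array was the lowest by both readings, and both probe sets were higher at FD 0 hr by 1.30 and 1.31.

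RPS6, the classic substrate of S6 kinase, was at 12.80, 13.62, 13.50 and 13.60 (0.82 at FD 0 hr, 1 probe set). The 3 FD arrays lay within 0.12 of each other and well above the control. RPS7, which in human cells also binds MDM2, was at 12.12, 13.03, 12.58 and 12.57 (0.91), and its probe sets were higher by 0.60 and 1.22.

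RPS14, on the mRNA exit side of the small subunit, gave a median of 6.80, 7.80, 7.01 and 6.80, and its brightest probe set stood at 13.23, 13.74, 13.58 and 13.32. The median gave a larger difference (1.0) than the brightest probe set (0.51), and both returned close to control at FD 24 hr. In RPS12 the readings lay furthest apart in the small subunit, at 1.09 by the median, which is a dim probe set at 5.19 and 6.28, and at -0.02 by the brightest, at 12.06 and 12.04. RPS12 is thus counted as higher on the strength of a dim probe set only.

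RPS15 of the small subunit head, close to the decoding site, was at 13.31, 13.90, 13.54 and 13.41 (0.59). RPS16, in the head as well, was at 13.02, 13.60, 13.30 and 13.13 (0.58), and RPS15A at 12.44, 12.95, 12.66 and 12.64 (0.505) by its median and higher by 0.74 by its brightest probe set. In all 3 genes the FD 0 hr array was the highest and the control array the lowest.

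Among large subunit proteins RPL29, which in mammals is also found at the cell surface as a heparin-binding protein, had the largest median difference. It was at 7.61, 8.87, 7.88 and 7.72 (1.26), and its brightest probe set at 12.21, 12.98, 12.39 and 12.23 (0.77). All 5 of its probe sets were higher at FD 0 hr, by 0.09 to 1.26, and the median and the brightest probe set were both back within 0.11 of control at FD 24 hr.

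RPL37, on the Z chromosome, was at 12.48, 13.53, 13.14 and 13.07 (1.05). RPL14 was at 12.36, 13.29, 12.79 and 12.81 (0.93), and RPL36A at 12.31, 13.06, 12.88 and 12.75 (0.75). In these 3 genes, with 1 probe set each, the FD 6 hr and FD 24 hr arrays lay between control and FD 0 hr. RPL30 was higher by 0.62 (12.93, 13.55, 13.36 and 13.20), and RPL32 also by 0.62 but without a lower value afterwards (12.39, 13.01, 13.05 and 12.98).

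RPL5 and RPL11 enter the large subunit together with the 5S RNA and, when ribosome assembly is disturbed, bind MDM2 in mammalian cells. RPL5 was at 11.15, 11.89, 11.92 and 12.10, so that it was lowest on control and highest at FD 24 hr (0.74 at FD 0 hr). RPL11 was at 12.16, 12.30, 12.35 and 12.38 by its median and at 12.73, 12.87, 12.75 and 12.83 by its brightest probe set (0.14 by both). The partners thus differed in size, and neither was lower on an FD array than on control.

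Of the 14 members that were lower at FD 0 hr, 10 were of the large and 4 of the small subunit. RPLP0, the base of the stalk that recruits elongation factors, was at 12.24, 11.62, 11.58 and 11.96 (-0.62). Its partner RPLP1 was at 6.09, 6.41, 6.06 and 6.09 by its median (0.32) and at 12.86, 12.97, 12.99 and 12.89 by its brightest probe set (0.11). RPLP2 was at 8.27, 8.28, 8.37 and 8.35 by its median (0.01) and at 10.87, 10.97, 11.04 and 11.12 by its brightest probe set (0.10). Both partners stayed within 0.25 of control on all FD arrays by the brightest probe set, while the dim median of RPLP1 left that range at FD 0 hr. The stalk proteins did not move as a unit, and RPLP0 was the lowest of them relative to control on every FD array.

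RPL4, whose long loop lines the peptide tunnel, was at 12.16, 11.65, 12.03 and 12.22 (-0.515), with its probe sets lower by 0.50 and 0.53. RPL3 and RPL8, which lie close to the catalytic centre, were lower by 0.09 and 0.14. RPL3 was at 12.49, 12.40, 12.58 and 12.40, and RPL8 at 13.24, 13.10, 13.11 and 13.28. RPL6 was at 12.45, 12.26, 12.33 and 12.42 (-0.19). In RPL4 and RPL6 the FD 0 hr array was the lowest of the 4, and in RPL3 and RPL8 the differences were small.

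RPL15, one of the genes mutated in Diamond-Blackfan anaemia, was higher by 0.12 in its median, a dim probe set at 5.27 and 5.39. Its brightest probe set was at 13.14, 12.69, 13.14 and 13.28 (-0.45). Here the bright reading was lowest at FD 0 hr, against the sign of the median.

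In the small subunit, RPS26 of the mRNA exit side was at 12.21, 11.87, 11.89 and 11.99 (-0.34). RPS27A, made as a fusion with ubiquitin, was at 13.19, 13.01, 13.01 and 12.95 (-0.18), RPS3 of the mRNA entry site at 12.38, 12.23, 12.51 and 12.60 (-0.15), and RPS2, its neighbour there, at 11.88, 11.74, 11.90 and 11.98 (-0.145, and -0.19 by its brightest probe set). RPS26 and RPS27A remained below control on all FD arrays, whereas RPS3 and RPS2 were above it at FD 6 hr and FD 24 hr.

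At the rim of the tunnel exit, where chaperones and the signal recognition particle dock, 5 proteins were counted (RPL17, RPL19, RPL23A, RPL31 and RPL35). All 5 were higher at FD 0 hr, by 0.06 to 0.52, beside 33 of 43 members of the large subunit. The set is not complete, and RPL22 (-0.19) and RPL26L1 (0.48) were not counted in it. By the brightest probe set RPL19 was lower by 0.08. Of the 5, 4 stood within 0.40 of control, and the furthest was RPL17, a Z-linked gene. In the head of the small subunit 7 of 9 proteins were higher, with a median of 0.33 and a range of -0.18 to 1.09. The top of this range is the dim median of RPS12. Of these 9, 6 were higher by the brightest probe set, with a median of 0.33 and a range of -0.18 to 0.59. In the whole small subunit 20 of 24 members were higher, with a median of 0.33, and 19 by the brightest probe set, with 0.365. The head thus lay close to its subunit.

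**Figure D3:**
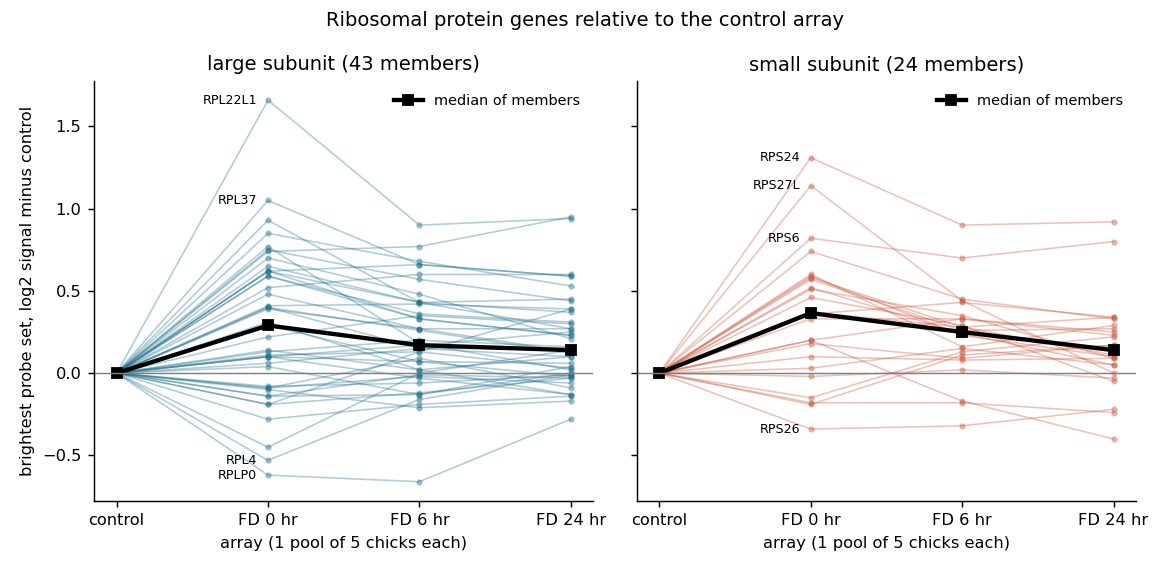
Log2 signal of the brightest probe set of each member minus its value on the control array (y axis) on each of the 4 arrays (x axis), by subunit, with the median over members in black. The median is 0.29 in the large and 0.365 in the small subunit at FD 0 hr and 0.14 in both at FD 24 hr.

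Of the paralogues, RPS27L, which p53 induces in human and mouse cells, was at 8.40, 9.54, 8.84 and 8.40 (1.14). It was back at its control value at FD 24 hr. RPL22L1 had a median of 5.19 and 5.03 on control and FD 0 hr, yet its brightest probe set was at 10.15, 11.81, 11.05 and 11.09. This probe set gave the largest difference of any member's brightest reading at FD 0 hr (1.66), while its dimmer probe sets gave -0.16 and 0.25. RPL22, the main form, which in mouse lowers the RPL22L1 mRNA, was at 11.72, 11.53, 11.85 and 12.11 (-0.19). The pair thus stood on opposite sides of control at FD 0 hr by the bright reading of RPL22L1, and both were above control at FD 24 hr.

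RPL3L, a form of striated muscle in mammals, stayed dim at 5.75, 5.65, 5.54 and 5.58. RPL26L1 was at 12.87, 13.35, 13.14 and 13.00 (0.48) and RPL39L at 12.80, 13.39, 13.16 and 13.11 (0.59). These last genes are close copies of RPL26 and RPL39, for which no gene value was formed, and an array probe can read both copies, so that their values may belong to either form. RPL7L1, which serves in assembly of the large subunit, was at 9.86, 10.08, 10.21 and 10.16 in its brightest probe set (0.22) and higher by 0.075 in its median.

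RPS13 was read only by dim probe sets with a single symbol, at a median of 5.66, 5.92, 5.56 and 5.50. A further probe set, annotated to both GNAL and RPS13 and therefore outside the gene value, was at 13.55, 13.42, 13.35 and 13.49. That probe set was lower than control by 0.13 at FD 0 hr, where the dim median was higher by 0.26. For 16 of the 35 members with several probe sets, at least 1 probe set was higher and at least 1 lower at FD 0 hr. In RPL10A (11.74, 12.39, 12.17 and 12.11), RPL23 (11.49, 12.11, 11.82 and 11.72), RPS25 (13.05, 13.62, 13.31 and 13.32) and RPS28 (11.74, 12.26, 11.98 and 11.79) the brightest probe set was higher, by 0.65, 0.62, 0.57 and 0.52, and a probe set dimmer than it was lower, by 0.17, 0.42, 0.36 and 0.27. In RPL12 it was the brightest probe set that was lower (11.42, 11.14, 11.23 and 11.28), while the other, at 4.42 and 4.47, was higher by 0.05. A probe set that goes against the brightest one is dimmer by definition, so that these 5 genes do not show which reading is right. In RPL21 the brightest probe set was higher by 0.41 (11.98 and 12.39) and dimmer ones by as much as 1.92 (6.84 and 8.76).

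RPL17, RPL37, RPS23 and RPS6 lie on the Z chromosome, and all 4 of these members were higher at FD 0 hr, by 0.37 to 1.05, and at FD 24 hr, by 0.34 to 0.80. RPL17 was at 12.96, 13.48, 13.56 and 13.56, and RPS23, of the decoding site, at 13.30, 13.67, 13.58 and 13.64. Male birds carry a pair of Z chromosomes and females 1, and Z genes are only partly dosage compensated. Over all 269 Z genes above the dim limit the median was 0.46 at FD 0 hr and 0.35 at FD 24 hr, beside the HINTW values given above. Without these 4 members the median of the ribosomal proteins was 0.26 at FD 0 hr, with 49 of 63 higher and 18 at 0.5 or more. Of the brightest 10% of genes off Z, 634 of 1242 were higher and 273 were at 0.5 or more, with a median of 0.02. Of the 9 members at 0.5 or more at FD 24 hr, 3 were Z-linked.

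The number in a large subunit symbol comes from the old naming by gel position and tends to be lower in larger proteins. In the large subunit, members with a number up to 10 had a median of 0.065 at FD 0 hr (5 of 9 higher) and those with a number over 10 a median of 0.365 (23 of 26 higher). By the brightest probe set these medians were -0.09 (4 of 9 higher) and 0.40 (21 of 26 higher), so that the sign for numbers up to 10 depended on the reading. Spearman's rho between number and difference was 0.43 over 35 members by the median and 0.38 by the brightest probe set. In the small subunit rho was -0.07 and 0.12 over 22 members, and the medians were 0.20 (5 of 7 higher) and 0.33 (13 of 15 higher), or 0.20 (5 of 7) and 0.46 (12 of 15) by the brightest probe set. These coefficients run across genes of the same 4 arrays, which are no independent replicates, and they come from the arrays whose β-actin probe sets are described above. Whether transcript length or RNA quality had a part in this was not tested.

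**Figure D4:**
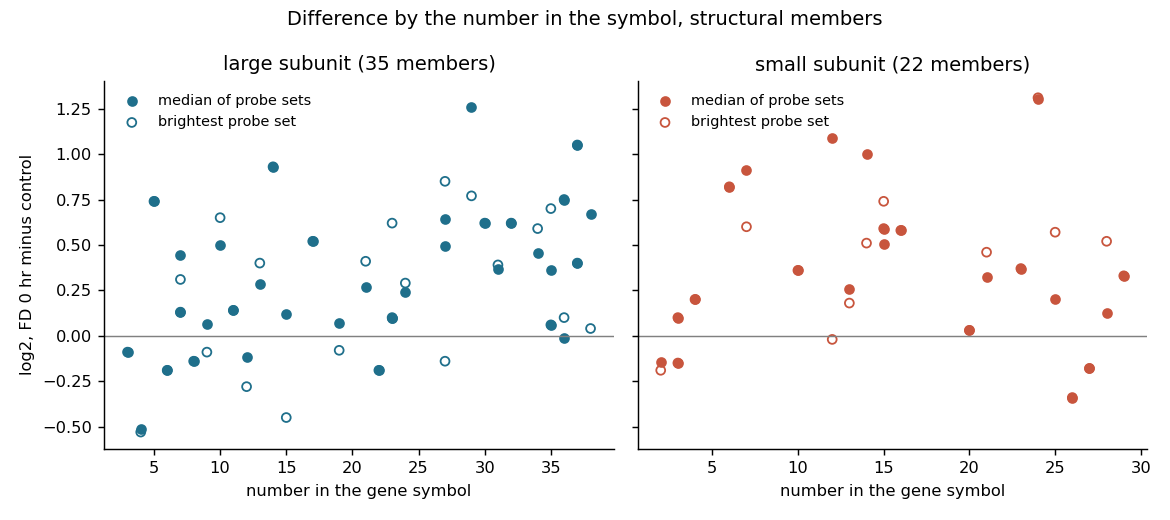
FD 0 hr minus control on the log2 scale (y axis) against the number in the gene symbol (x axis) for structural members of the large and small subunit, with the median of probe sets filled and the brightest probe set open. Most large subunit members with a number over 10 lie above 0, and those up to 10 lie on both sides of it.

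Removal of the occluder for 6 hr asks for early changes in recovery. From FD 0 hr to FD 6 hr, 23 members were higher, or 34.3%, beside 49.8% of all gene measures, and 42 were lower. The median was -0.11, beside 0.00 for all gene measures and 0.05 for the brightest 10%. None was higher by 0.5, beside 3.86% of all gene measures, and 5 were lower by 0.5, or 7.46%, beside 3.06% of all gene measures and 5.82% of the brightest 10%. These were RPL29 (-0.99), RPS14 (-0.79), RPS27L (-0.70), RPS12 (-0.51) and RPL14 (-0.50). In FD 0 hr minus control, which shares the FD 0 hr array with this difference, the same genes were at 1.26, 1.0, 1.14, 1.09 and 0.93. The brightest probe sets gave 4 members lower by 0.5, or 5.97%, close to the 4.24% of all genes and 4.75% of the brightest 10%. They gave none higher, beside 5.23% of all genes. RPL14, RPL29 and RPS27L were lower by 0.5 by both readings, which are the same value in RPL14 and RPS27L, with 1 probe set each. By the median of probe sets the largest differences upwards were RPL4 (0.385), RPL22 (0.32) and RPS3 (0.28), and by the brightest probe set RPL15 (0.45) and RPL4 (0.37). RPL38 was lower by 0.40 in its median (12.48, 13.15, 12.75 and 12.55) and by 0.17 in its brightest probe set (13.89, 13.93, 13.76 and 13.89). RPS20 (13.43, 13.46, 13.58 and 13.48) and RPS4Y1 (12.87, 13.07, 13.20 and 13.12) were highest at FD 6 hr. The subunits had medians of -0.10 (large) and -0.12 (small).

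From 6 to 24 hr of recovery the ribosomal proteins differed little. The median was -0.02, beside -0.01 for all gene measures and -0.09 for the brightest 10%. Of the members 28 were higher (41.8%, beside 46.6% of all gene measures) and 36 lower. RPL9 alone was higher by 0.5 (1.49%, beside 1.75% of all gene measures and 2.84% of the brightest 10%) and RPL35A alone was lower by 0.5 (1.49%, beside 4.08% and 7.28%). By the brightest probe set no member reached it, beside 2.57% of all genes upwards and 5.28% downwards. RPL9 had a median of 8.97, 9.04, 8.74 and 9.48, and its brightest probe set stood at 12.49, 12.40, 12.47 and 12.43. RPL35A was at 6.03, 6.39, 6.33 and 5.80 by its median and at 10.67, 11.37, 11.15 and 10.88 by its brightest probe set, which was lower by 0.27 over this interval. RPLP0 was higher by 0.38 over this interval, and RPS27L lower by 0.44. RPS21 was lower by 0.265 in its median (9.38, 9.71, 9.47 and 9.20) and by 0.34 in its brightest probe set (13.15, 13.61, 13.44 and 13.10). RPL27A was lower by 0.305 in its median (8.58, 9.08, 9.07 and 8.76) and by 0.15 in its brightest probe set (12.77, 13.62, 13.45 and 13.30).

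This pair of arrays and the pair of control and FD 0 hr have no array in common. Across the 60 structural members, Pearson's r between these differences was -0.25 (Spearman's rho -0.30), and by the brightest probe set -0.47 (rho -0.45). The points are genes read on the same arrays and are not independent. These coefficients were not computed over all gene measures, so that they cannot be called particular to the ribosomal proteins.

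After 24 hr of recovery most members were still slightly above the control array. The median of FD 24 hr minus control was 0.11, beside -0.015 for all gene measures and -0.02 for the brightest 10%. Of the members 49 were higher (73.1%, beside 46.3% of all gene measures) and 15 lower. A difference of 0.5 was reached upwards by 9 members, or 13.4%, beside 4.24% of all gene measures and 9.58% of the brightest 10%. Downwards it was reached by none, beside 4.77% and 9.20%. The 9 were RPL27 (0.98), RPS24 (0.97), RPL5 (0.95), RPS6 (0.80), RPS12 (0.71), RPL17 (0.60), RPL32 (0.59), RPL37 (0.59) and RPL9 (0.505). By the brightest probe set 8 members reached it upwards, or 11.9%, beside 6.53% of all genes read in the same way. This share lay close to the 11.1% of the brightest 10%. Downwards no member reached it, beside 6.18% and 7.66%. The brightest 10% had a median of 10.78 on control, below the 12.71 of the members, so that they are not matched in level. The 8 were RPS24, RPL5, RPS6, RPL17, RPL32 and RPL37, which reached it by both readings, with RPL22L1 (0.94) and RPL27A (0.53). Of those that reached it by both, only RPS24 has more than 1 probe set, so that only there could the readings differ. RPS6, RPL17 and RPL37 are Z-linked. Off Z, 6 of 63 members reached 0.5 upwards by the median, beside 90 of 1242 genes of the brightest 10%. By the brightest probe set 5 of these 63 members did, beside 96 of the same 1242 genes. The upward share off Z was thus close to that of bright genes by the brightest probe set. RPL27 (7.00, 7.64, 7.52 and 7.98) had its brightest probe set at 13.67, 13.53, 13.66 and 13.64. The lowest were RPS19BP1 (-0.345), RPL36 (-0.335), RPLP0 (-0.28), RPS27A (-0.24), RPL35A (-0.23) and RPS26 (-0.22). Subunit medians were 0.125 (large) and 0.10 (small).

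Seen over all 4 arrays, control held the lowest value for 40 members (59.7%, beside 27.9% of all gene measures and 35.0% of the brightest 10%) and FD 0 hr the highest for 36 (53.7%, beside 30.5% and 34.5%). Control was the lowest array for 26 of 43 large and 14 of 24 small subunit members. The range of a member over the 4 arrays had a median of 0.42, from 0.10 to 1.305, while it was 0.32 over all gene measures and 0.56 in the brightest 10%. RPS3A (13.73, 13.83, 13.81 and 13.82), RPLP2 and RPL23 shared the narrowest range by the median, and by the brightest probe set RPS12 had the narrowest, at 0.05. RPL23 and RPS12 were not narrow by both readings. The probe sets of RPL23 went opposite ways at FD 0 hr (0.62 and -0.42), and its brightest stood at 11.49, 12.11, 11.82 and 11.72. The median of RPS12 was at 5.19, 6.28, 5.77 and 5.90.

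Other genes of protein synthesis were counted on lists made for this purpose. Of 62 measured factors of ribosome biogenesis 31 were higher and 30 lower at FD 0 hr, with a median of 0.005. The kinase RIOK1, which acts late in the maturation of the small subunit, was at 6.27, 7.50, 7.59 and 7.64 (1.225), and UTP15, a Z-linked part of the small subunit processome, at 7.07, 8.07, 8.19 and 7.95 (1.0). SBDS, which frees the large subunit of eIF6, was lower by 0.715 in its median and higher by 0.09 in its brightest probe set, and IMP4 of the processome was lower by 0.76. As a whole the list lay close to 0.

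Of 15 other mRNAs that begin with a TOP tract, 7 were higher and 8 lower at FD 0 hr, with a median of -0.01. EEF2, the factor that moves the ribosome along the mRNA, was at 11.94, 10.53, 10.75 and 10.75 (-1.41), and NACA, which binds the emerging chain, was lower by 0.50. NAP1L1, a histone chaperone, was higher by 0.65 and EIF3H, a part of initiation factor 3, by 0.53. EEF1A1, which brings the charged tRNA, was at 12.54, 12.39, 12.87 and 12.53. RACK1, a signalling scaffold on the small subunit head, was at 11.59, 11.31, 11.47 and 11.49 (-0.28). The genes that share the TOP tract with the ribosomal proteins were thus split in both directions.

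Among 31 initiation factors 16 were higher and 13 lower (median 0.01), with EIF4EBP1, the mTOR target that holds back eIF4E, at 0.84 and EIF3M at 0.80, and with EIF3L at -0.64 and EIF1 at -0.56. Of 24 genes of mTOR, S6 kinase and TOP control 7 were higher and 16 lower (median -0.10). In this list PDPK1, a kinase upstream of S6 kinase, was lower by 0.92 in its median but higher by 0.13 in its brightest probe set, and RPS6KB1, the S6 kinase itself, was dim and higher by 0.255. MLST8, a subunit of the mTOR complexes, was lower by 0.47, and DDIT4, an inhibitor of mTOR complex activity, was higher by 0.20. Of 20 genes of signal recognition and translocation 11 were higher and 8 lower (median 0.04), with the Z-linked SRP19 at 1.80, SEC61G at 1.50, RPN2 at -1.10 and SSR2 at -0.77. The 67 mitochondrial ribosomal proteins had a median of 0.11 at FD 0 hr (41 higher, 26 lower) and of -0.01 at FD 24 hr.

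**Figure D5:**
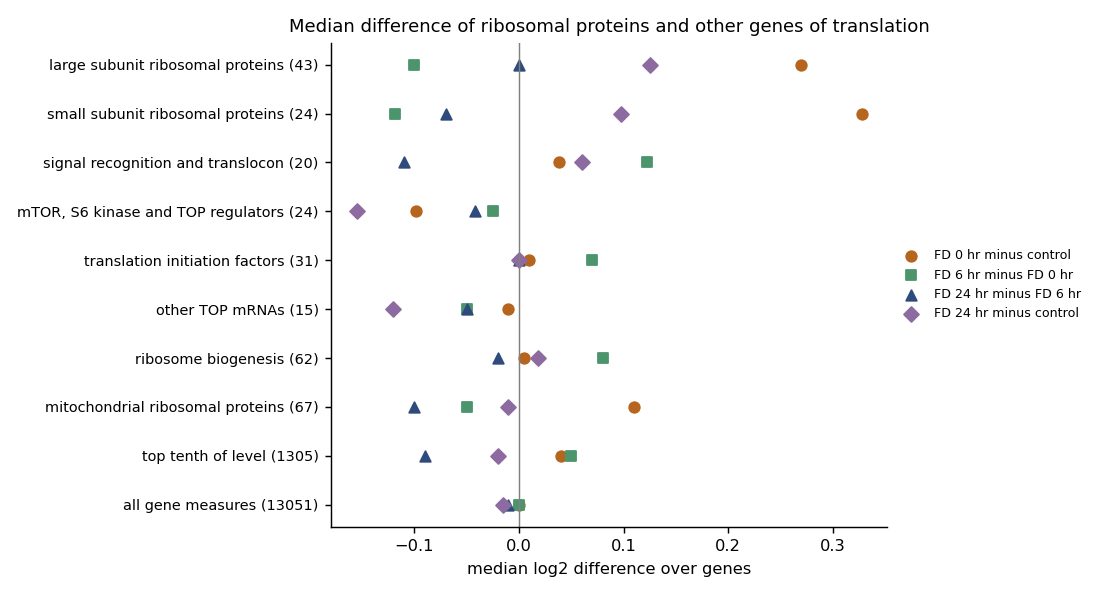
Median log2 difference over genes (x axis) in the 4 comparisons for large and small subunit ribosomal proteins, 5 lists of other genes of translation, mitochondrial ribosomal proteins, the brightest 10% of genes and all gene measures (y axis, number of genes in brackets). The subunits, at 0.27 and 0.33 for FD 0 hr minus control, stand furthest to the right.

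Markers of cell types differed at FD 0 hr too. Of all gene measures 49.4% were higher and 49.5% lower. Of 12 amacrine and horizontal cell markers 10 were lower and 2 higher (median -0.635), with TFAP2B at -2.40 and SLC6A9 at -1.93 the lowest. By at least 0.5, 7 of the 12 were lower and 0 higher. Of all gene measures 9.85% were lower by as much, and of the brightest 10% of genes 20.2%. All 9 Müller glia markers were lower (median -0.26), as were 7 of 9 ganglion cell markers (median -0.25) and 5 of 8 cone markers (median -0.605). Of 11 smooth muscle and fibroblast markers 8 were higher (median 0.37), with MYH11 at 1.71 and TAGLN at -1.18. Medians of the other lists were -0.12 for rods, -0.295 for bipolar cells, -0.48 for oligodendrocytes, 0.005 for pigment epithelium, 0.05 for endothelium, -0.26 for erythrocytes and -0.015 for leukocytes. By the brightest probe set the list medians differed most for smooth muscle and fibroblasts (0.76), oligodendrocytes (-0.15), leukocytes (0.26) and ganglion cells (-0.13). Only that of leukocytes changed sign. Fewer cells of a type and less RNA per cell cannot be told apart in such pools, and the part of the cell mix in the ribosomal protein values was not tested.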

How the data were processed

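RNA from pools of 5 chicks, 1 pool and 1 array a group, was measured on Affymetrix chicken arrays. The authors summarised the arrays with RMA in Affymetrix Expression Console, and the deposited values are log2 signals with 2 decimals, 1 for each of 38535 probe sets. The submitters' processing notes also name MAS5. Per the study's methods, arrays of an earlier induction study were pre-processed both apart from these and together with them, and the jointly modelled data were presented. Whether the deposited values are the joint ones is not given in the sources used here. Array medians were 5.73 to 5.74, so the values were used as they stand. No other samples' columns were present.

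Of the probe sets, 27178 had 1 symbol in the platform's annotation and 177 had several. Probe sets with 1 symbol were summarised per gene by their median, and the brightest probe set was the one with the highest mean over the arrays. Chromosomes came from the RefSeq gene table for GRCg7b, which held all 67 members and 12872 of 13051 gene measures. The dim limit, 6.28, is the 60th percentile of probe set means. Counts used a log2 difference of 0.5, and the brightest 10% were taken by gene means over the arrays. With 1 array a group no test was run, and precision is limited by the number of arrays. The counting was checked on simulated arrays with raised and lowered genes, at a limit of 1 only, so that counts at 0.5 were not checked in this way.

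Named are the 4 members furthest each way in each subunit and difference, Z-linked members, paralogues with their main form, stalk proteins, RPS6, RPS3, RPS27A, RPL5, RPL11 and RPL22, members whose probe sets disagree in sign, and, from the lists of translation genes, the 2 genes furthest each way at FD 0 hr. Most cell type lists are given by their medians, with fewer genes named than this rule asks. Members shown as examples of a position in the ribosome (such as RPS16, RPL30 and RPL8) were added after their values were seen. Members and lists were chosen with earlier results of these data known. Of the 304 genes on 18 lists 262 were measured. Alternatives were quantile normalisation, centring of arrays, setting genes against others of similar level (bins of 10%), the mean of probe sets, the brightest probe set, leaving out probe sets ending in a, s or x, leaving out Z and W genes, RefSeq symbols, structural members only, members above the dim limit and a limit of 1. Python 3.11.15, NumPy 2.4.6, pandas 2.3.3, SciPy 1.17.1 and Matplotlib 3.10.9 were used.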

Additional observations from a re-analysis of the deposited data

How the results depend on the processing

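No paired analysis was possible because each group had 1 array. Leaving out a replicate was not possible for the same reason. Under 13 alternative settings, 200 values of medians, subunit gaps and counts were computed, of which 175 were scored as the same and 25 as moved. The 16 values with RefSeq symbols could not differ, since these symbols gave the same 67 members. Scored as the same does not mean equal. A subunit gap of -0.23 at FD 0 hr was so scored beside -0.057 in the main setting. The median at FD 0 hr minus control was 0.205 to 0.33 in all of these settings. The gap between the subunits, large minus small, was -0.23 to 0.022 there, so that its sign was not settled. With a limit of 1 on the log2 scale, 6 members were higher and 0 lower at FD 0 hr, 0 were lower from FD 0 hr to FD 6 hr, 0 differed either way from FD 6 hr to FD 24 hr and 0 were higher at FD 24 hr than control. Without probe sets ending in a, s or x, which left 44 members, 13 were higher and 0 lower at FD 0 hr, 3 were lower from FD 0 hr to FD 6 hr, 0 differed either way from FD 6 hr to FD 24 hr, and FD 24 hr minus control had 3 higher and 1 lower. These counts come from fewer members. With the mean of probe sets 3 were lower from FD 0 hr to FD 6 hr. From FD 6 hr to FD 24 hr, RPL9 and RPL35A no longer passed the limit with the mean of probe sets or the brightest probe set, which left 0 either way, and 0 were lower among members above the dim limit. Set against genes of similar level (bins of 10%) the median of that interval was 0.035. The next settings were chosen after seeing the data. With the brightest probe set against genes of similar level 0 members differed either way from FD 6 hr to FD 24 hr. With structural members whose brightest probe set was at least 10, of which there were 58, 2 were lower from FD 0 hr to FD 6 hr and 0 differed from FD 6 hr to FD 24 hr. Probe sets close to the highest values of an array have little room to differ upwards, and dim ones lie close to background.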
